A study of Mus musculus and Homo sapiens with 12 samples.

Results

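Nucleotide synthesis was followed through 9 enzymes: the ribonucleotide reductase subunits RRM1 and RRM2, thymidylate synthase TYMS, thymidine kinase TK1, the pyrimidine enzymes CAD and UMPS, and the purine enzymes PAICS, GART and IMPDH2. They were chosen by gene symbol, ignoring case, and all 9 were present among the 11513 genes of the human table and the 10430 genes of the mouse table. The human samples were KOPTK1, an established T-cell acute lymphoblastic leukaemia (T-ALL) line, kept for 72 h with DMSO solvent or with Compound E, a gamma-secretase inhibitor that blocks release of the active NOTCH1 fragment, with 2 libraries in each group. The mouse samples were GFP-positive leukaemic cells sorted from the spleen of C57BL/6 animals that carried secondary transplants of T-ALL driven by NOTCH-delta E, an activated NOTCH form that every diet group shared. Those animals ate for 3 weeks a control diet with 8 g/kg valine, a valine-free diet (0 g/kg), or that diet with valine returned in the drinking water at 0.8 or 0.4. The sample labels give those 2 doses in g/kg and the treatment text gives them in g/L of water, so g/kg is used for them only as the group's name, and ranking them between 8 and 0 g/kg is an order of diets, not of intake. Each diet had 2 libraries, named TALL2 and TALL3. The labels give no age, do not say how the GFP was introduced, and do not say whether samples came from separate cultures, animals or primary tumours, so p-values measure only the spread between these samples, which may be technical.

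Cells make purine and pyrimidine bases by de novo routes that assemble the ring step by step, or salvage ready-made nucleosides through kinases such as TK1. Ribonucleotide reductase, built of the large subunit RRM1 and the small subunit RRM2, turns ribonucleotides into the deoxyribonucleotides (dNTPs) that DNA synthesis consumes, and TYMS makes the thymidylate. RRM2, TYMS and TK1 are known for levels that rise as cells enter S phase, and T-ALL is treated with drugs that act on this chemistry, among them antifolates and purine analogues.

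The promoters of 4 members are printed to set the dNTP enzymes Rrm1, Rrm2 and Tyms, which varied together between the mouse libraries, beside the purine enzyme Gart, which varied with Paics. Each line gives, 5′ to 3′ on the coding strand, up to 250 bases before the start, short of the first annotated exon, from RefSeq on GRCm38.p6. They lie at chr7:102441445-102441694 on the plus strand for Rrm1, chr12:24708004-24708240 on the plus strand for Rrm2, chr5:30073626-30073875 on the minus strand for Tyms and chr16:91646973-91647222 on the minus strand for Gart. Capitals mark CCAAT, the NF-Y motif, in Rrm1, Rrm2 and Gart, and CACGTG, the E-box that MYC can bind, in Tyms.
Rrm1: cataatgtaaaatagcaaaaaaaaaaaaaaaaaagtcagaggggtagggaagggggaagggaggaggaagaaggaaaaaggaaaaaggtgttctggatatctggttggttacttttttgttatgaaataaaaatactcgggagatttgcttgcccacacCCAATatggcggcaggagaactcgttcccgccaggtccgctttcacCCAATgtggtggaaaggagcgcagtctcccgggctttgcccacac
Rrm2: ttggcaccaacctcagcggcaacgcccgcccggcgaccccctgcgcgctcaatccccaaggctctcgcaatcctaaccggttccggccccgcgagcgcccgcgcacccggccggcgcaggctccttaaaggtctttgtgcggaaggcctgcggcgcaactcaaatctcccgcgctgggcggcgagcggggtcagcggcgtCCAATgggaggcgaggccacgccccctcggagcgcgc
Tyms: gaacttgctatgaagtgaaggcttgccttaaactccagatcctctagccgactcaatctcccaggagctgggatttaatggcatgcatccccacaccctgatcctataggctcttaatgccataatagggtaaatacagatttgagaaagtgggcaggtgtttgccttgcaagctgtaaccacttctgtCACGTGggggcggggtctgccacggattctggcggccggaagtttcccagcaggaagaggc
Gart: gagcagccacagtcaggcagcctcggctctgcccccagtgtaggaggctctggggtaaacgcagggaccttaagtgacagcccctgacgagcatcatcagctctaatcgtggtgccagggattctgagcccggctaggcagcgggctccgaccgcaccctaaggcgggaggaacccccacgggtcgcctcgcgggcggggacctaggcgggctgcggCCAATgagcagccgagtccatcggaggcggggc
Windows of 250 bases before to 50 after the start were searched on both strands for all 9 members. CCAAT was present in 5 of them (Rrm1, Rrm2, Paics, Gart and Impdh2) and in 37.4% of all 32851 windows of the same table. CACGTG was present in 3 (Tyms, Paics and Impdh2), against 7.15% of all windows. Of E2F sites, only the exact strings TTTCCCGC and TTTGGCGC were searched. They were in none of the 9 windows and in 1.56% of all. With strings this rare, their absence does not show that these promoters lack E2F sites. Rrm1 holds CCAAT at 91 and 45 bases before its start, Rrm2 at 50 and Gart at 33, so this motif does not separate these dNTP enzymes from Gart. Tyms holds CACGTG at 61 bases before its start. Paics and Impdh2 hold both CCAAT and CACGTG, whose letters cannot overlap one another. A match is a description of the letters only.

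Reads per library, recovered from the FPKM values, ran from 22939478 to 42245079 in KOPTK1 and from 14222895 to 37687253 in the mouse samples. Gene lengths implied by the FPKM values had a median of 29957 bases in the human table and 3180 in the mouse table. For RRM1 the length was 44169 bases in the human table and 3997 in the mouse table. Human FPKM levels are therefore not compared between genes: a ratio or sum over human genes serves only to compare libraries. Mouse levels are compared between genes, within the limits on overlapping genes and pseudogenes given with the coordinates below. The NOTCH check list (HES1, HES4, DTX1, NOTCH3 and MYC) fell in 5 of 5 genes under the inhibitor, with a median log2 change of -2.52. T-cell marker transcripts of 10 genes summed to 368 and 352 FPKM in DMSO and to 208 and 221 FPKM with the inhibitor, and those of 12 genes to 3650 to 4664 FPKM in the sorted mouse cells. ATF4 target genes, which respond to amino acid shortage, rose in 6 and fell in 4 of 11 genes under the inhibitor, and 10 of 10 were higher at 0 than at 8 g/kg without passing the test. Other marker lists moved with the mouse diets. Summed FPKM of 10 neutrophil genes, in TALL2 and TALL3, was 0.790 and 8.38 at 8 g/kg, 13.4 and 6.62 at 0.8, 12.1 and 72.5 at 0.4, and 545 and 305 at 0 g/kg. Camp, Elane, Retnlg and S100a8 were listed at 0 in TALL2 at 8 g/kg. For 9 erythroid genes the sum was 102 and 285 FPKM on the control diet, and on the valine-free diet it was 8.71 and 8.57, where Alas2 and the globins were listed at 0 in TALL2. For 5 macrophage genes it ran from 6.25 to 16.7 FPKM on the other diets and was 37.6 and 36.5 on the valine-free diet. All 5 were higher at 0 than at 8 g/kg, but the median log2 difference was only 0.28. Of them, 1 had an unadjusted p under 0.05 in limma. A sum is carried by its highest genes, and which cells gave these reads was not tested.

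Gamma-secretase inhibition was compared with DMSO to ask which members change when NOTCH1 signalling is blocked. Of the 9 members, 7 fell, CAD rose and UMPS did not pass the test. The dNTP enzymes and IMPDH2 were lowest, at 53.6% to 65.9% of the DMSO level. The test was limma on log2(FPKM + 1) over the 6679 genes whose mean reached 1 FPKM, testing both directions, with Benjamini-Hochberg adjustment at 0.05. By the same rule 3547 of those genes were called (53.1%): 2023 fell (30.3%) and 1524 rose (22.8%). That balance depended on the scaling and on 1 library: 2767 rose and 1582 fell with voom on recovered reads, 1981 rose and 1852 fell with quantile normalisation, and 1691 rose and 1617 fell without DMSO replicate 1. The median log2 change was -0.50 over the members and -0.03 over all tested genes. In bulk RNA, fewer cells of a type and less RNA per cell cannot be told apart.

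**Figure D1:**
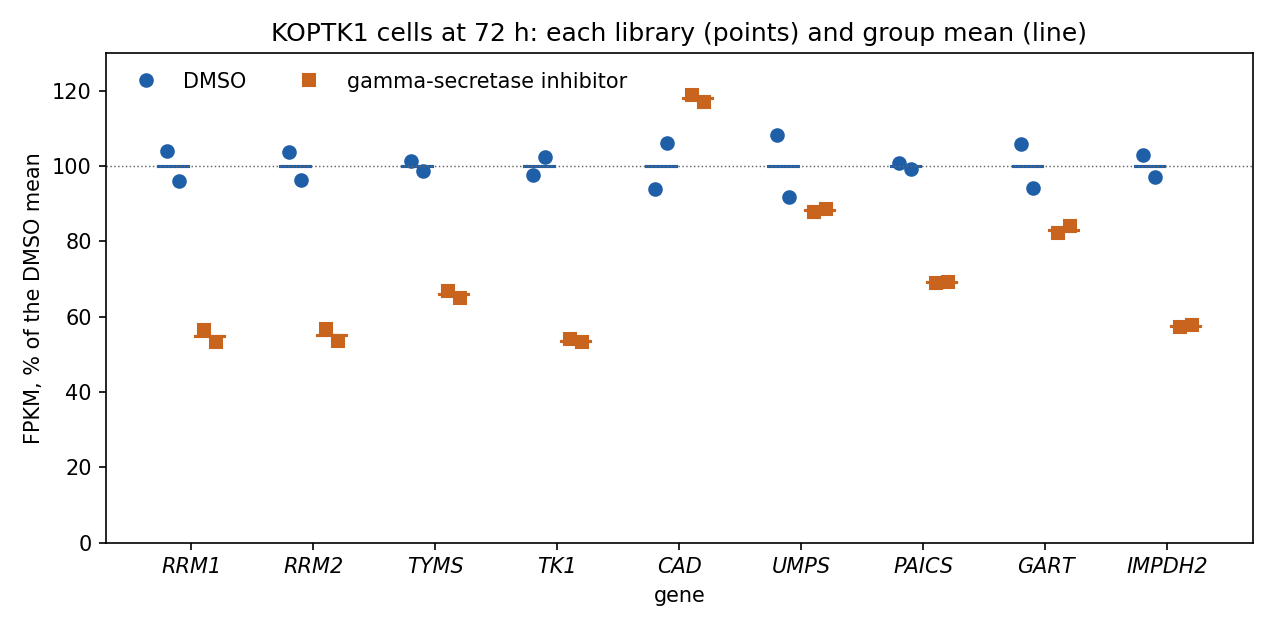
FPKM of each member in each KOPTK1 library, as a percent of the DMSO mean of that gene; circles are the 2 DMSO libraries, squares the 2 inhibitor libraries and lines the group means. RRM1, RRM2, TK1 and IMPDH2 sit between 53.6% and 57.5% of DMSO on average, GART at 83.1%, UMPS at 88.2% and CAD at 118%.

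Both subunits of ribonucleotide reductase fell, to nearly the same share of their DMSO level. RRM1 measured 10.7 and 9.91 FPKM in DMSO and 5.81 and 5.48 FPKM with the inhibitor. RRM2 measured 52.0 and 48.3 FPKM in DMSO and 28.4 and 26.8 FPKM with the inhibitor. The groups did not overlap for either gene. RRM1 fell by 0.77 on the log2 scale (SE 0.0783, limma adjusted p = 6.1e-09) and RRM2 by 0.84 (SE 0.0837, limma adjusted p = 3.9e-09). Their means stood at 54.8% and 55.0% of DMSO.

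Within each library the FPKM ratio of RRM2 to RRM1 was 4.86 and 4.87 in DMSO and 4.88 and 4.89 with the inhibitor, each on 7856 to 11212 RRM1 reads. The exact 95% binomial intervals of these ratios, which cover counting error only, all overlapped, the widest running from 4.70 to 5.07. RRM2B is the small subunit that p53 induces and that serves non-cycling cells. It measured 1.69 and 1.39 FPKM in DMSO and 2.12 and 1.87 FPKM with the inhibitor, and rose by 0.24 on the log2 scale (SE 0.0702, limma adjusted p = 0.0053). The ratio of RRM2 to RRM2B went from 30.7 and 34.8 to 13.4 and 14.4. The rise of RRM2B did not pass without DMSO replicate 2 (adjusted p = 0.0930) or without inhibitor replicate 1 (adjusted p = 0.168).

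The thymidylate enzymes fell as well. TYMS measured 42.2 and 41.2 FPKM in DMSO and 27.9 and 27.1 FPKM with the inhibitor, a log2 change of -0.58 (SE 0.0819, limma adjusted p = 1.2e-06). TK1, which salvages thymidine in the cytosol of dividing cells, measured 1.71 and 1.79 FPKM in DMSO and 0.942 and 0.928 FPKM with the inhibitor. Its mean stood at 53.6% of DMSO, the lowest share among the members, and its log2 change on the pseudocount scale was -0.50 (SE 0.0583, limma adjusted p = 5.2e-08), a scale that understates changes of low genes. TK2, the mitochondrial thymidine kinase, lay below the filter at 0.291 and 0.259 FPKM in DMSO and 0.275 and 0.276 FPKM with the inhibitor. The TK1 to TK2 ratio was thus 5.86 and 6.89 in DMSO and 3.42 and 3.37 with the inhibitor.

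The 3 purine members fell to different extents. IMPDH2, the rate-limiting enzyme of guanine nucleotide synthesis, measured 52.6 and 49.6 FPKM in DMSO and 29.3 and 29.5 FPKM with the inhibitor, a log2 change of -0.78 (SE 0.0827, limma adjusted p = 1.2e-08). PAICS, which carries out a pair of middle steps of the purine ring, measured 10.6 and 10.4 FPKM in DMSO and 7.25 and 7.28 FPKM with the inhibitor (log2 change -0.48, SE 0.0771, limma adjusted p = 8.7e-06). GART, a trifunctional enzyme of the same route, measured 2.79 and 2.49 FPKM in DMSO and 2.17 and 2.22 FPKM with the inhibitor. Its groups did not overlap, but the change was small at -0.19 (SE 0.0715, limma adjusted p = 0.0294). GART no longer passed without a filter on low values (adjusted p = 0.0558), on recovered reads with voom (0.0862), or without DMSO replicate 1 (0.123), inhibitor replicate 1 (0.227) or inhibitor replicate 2 (0.177).

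The other form of IMPDH and the entry enzyme of the purine route were measured beside these members. IMPDH1, the second form of the enzyme, measured 0.251 and 0.291 FPKM in DMSO and 0.453 and 0.441 FPKM with the inhibitor. It lay under the filter, and in the fit without a filter it was higher by 0.19 (SE 0.0234, limma adjusted p = 0.00075). That value is on the pseudocount scale, which understates changes of low genes, and its mean stood at 165% of DMSO. The ratio of IMPDH2 to IMPDH1 went from 210 and 171 to 64.6 and 67.0. PPAT, which commits the pathway to purine synthesis and whose gene neighbours PAICS, measured 1.92 and 1.77 FPKM in DMSO and 1.72 and 1.56 FPKM with the inhibitor, lower in both inhibitor libraries than in both DMSO libraries, and did not pass (log2 change -0.11, SE 0.0656). The ratio of PAICS to PPAT was 5.54 and 5.88 in DMSO and 4.21 and 4.65 with the inhibitor.

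Of the pyrimidine members, CAD rose and UMPS did not pass. CAD, the protein that carries the opening 3 steps of the route, measured 3.82 and 4.32 FPKM in DMSO and 4.84 and 4.77 FPKM with the inhibitor. Both inhibitor libraries lay above both DMSO libraries, and CAD rose by a log2 change of 0.20 (SE 0.0768, limma adjusted p = 0.0336). That call ended without a filter (adjusted p = 0.0532), with median-of-ratios scaling (0.0533), and without DMSO replicate 1 (0.164), inhibitor replicate 1 (0.222) or inhibitor replicate 2 (0.189). CAD was higher with the inhibitor in all 12 alternatives that tested it, by 0.11 to 0.38. UMPS, which completes uridine monophosphate, measured 2.33 and 1.98 FPKM in DMSO and 1.89 and 1.91 FPKM with the inhibitor (log2 change -0.12, SE 0.0701, limma adjusted p = 0.157). It passed only without DMSO replicate 2 among the alternatives tried (adjusted p = 0.0219).

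**Figure D2:**
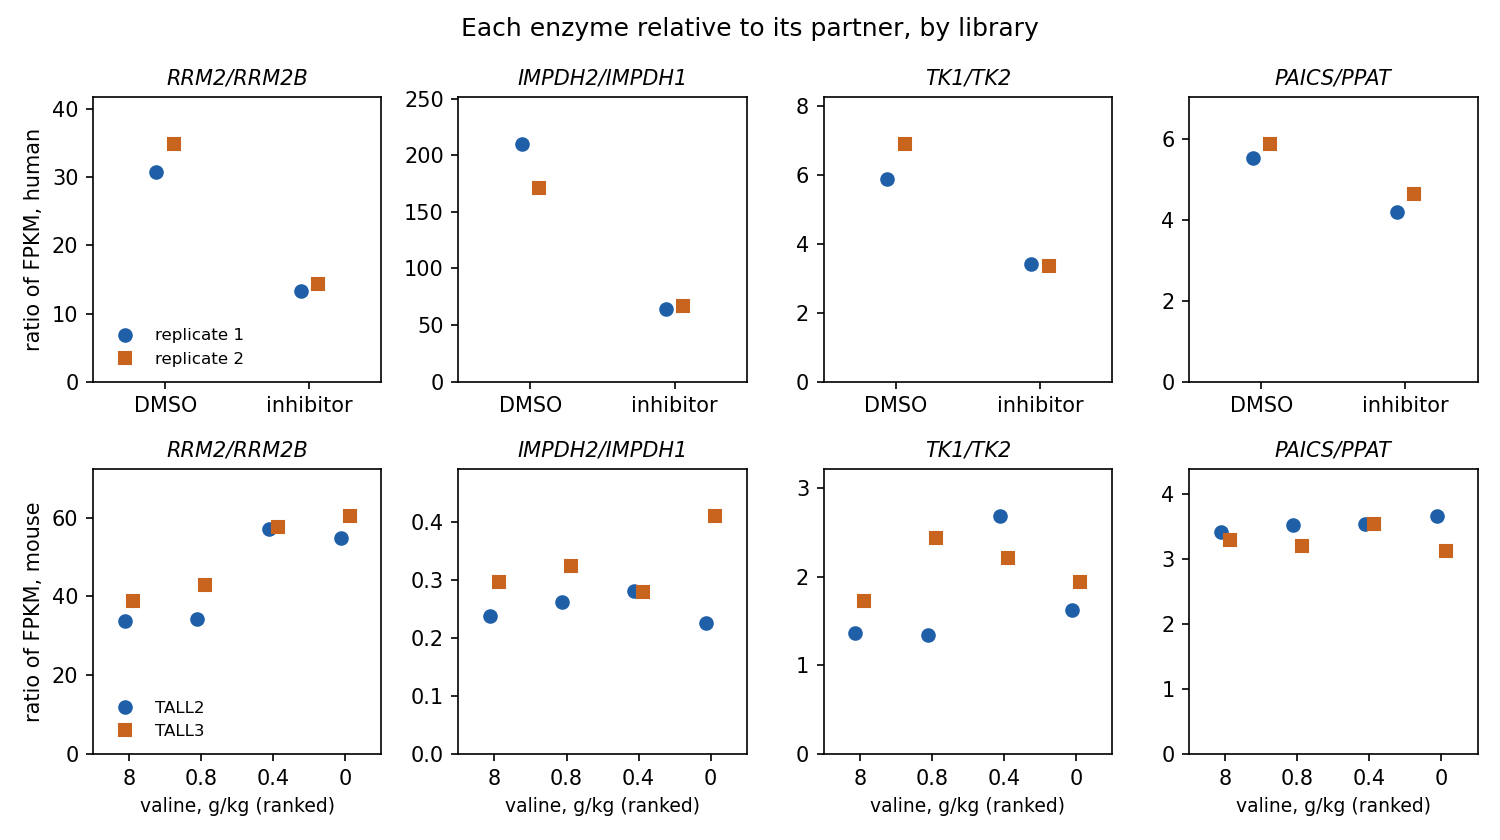
Ratio of FPKM of RRM2, IMPDH2, TK1 and PAICS to RRM2B, IMPDH1, TK2 and PPAT in each library, with KOPTK1 in the upper row and sorted mouse cells in the lower row; each point is 1 library. With the inhibitor all 4 ratios are lower in both libraries, and in mouse the Rrm2 to Rrm2b ratio is 33.8 to 42.9 at 8 and 0.8 g/kg and 54.8 to 60.3 at 0.4 and 0 g/kg.

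Most of the wider nucleotide pathway fell with the members. Of 44 listed pathway genes, members included, 35 were tested in KOPTK1: 26 fell, 3 rose (CAD, RRM2B and GUK1) and 6 did not pass. Among the 26 tested genes that are not members, 19 fell and 2 rose, with a median log2 change of -0.28. Of all tested genes 30.3% fell and 22.8% rose. DCK, which salvages deoxycytidine and activates nucleoside drugs such as cytarabine, fell by 0.66 (SE 0.0853) on the log2 scale. DUT, which clears dUTP, fell by 0.63 (SE 0.0773), and GMPS, which follows IMPDH2 in making GMP, by 0.59 (SE 0.0738). PRPS2, which makes the ribose donor PRPP, fell by 0.55 (SE 0.0734), UCK2, a uridine and cytidine kinase, by 0.53 (SE 0.0639), and ADA, adenosine deaminase, by 0.53 (SE 0.0783). GUK1, the guanylate kinase, rose by a log2 change of 0.21 (SE 0.0787), a call lost without DMSO replicate 1, inhibitor replicate 1 or inhibitor replicate 2 (adjusted p 0.0911 to 0.276).

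By route, with members counted in each list, 6 of 7 tested de novo purine genes fell and PPAT did not pass. One of the 6 was GART, whose call was lost in the alternatives given above. All 3 tested genes of the branch to AMP and GMP fell. Purine salvage fell in 4 of 6 tested genes, with PNP and APRT not passing, and the dNTP and thymidylate list fell in 7 of 9. In the pyrimidine route, CTPS1 fell, CAD rose and UMPS did not pass. Pyrimidine salvage fell in 2 of 3 tested genes, and nucleotide kinases fell in 3 of 5, with GUK1 higher and DTYMK not passing.

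A list of S-phase and replication genes moved alongside the members. In KOPTK1, 16 of its 18 tested genes fell, with a median log2 change of -0.43. Relative to the mean of this list within each library, on the log2(FPKM + 1) scale, RRM2 was lower with the inhibitor (difference -0.34), as were IMPDH2 (-0.27) and RRM1 (-0.26). On this scale TYMS (-0.08), TK1 (-0.0018) and PAICS (0.02) changed about as much as the list mean. GART (0.32), UMPS (0.38) and CAD (0.70) were higher relative to it. The scale understates changes of low genes, TK1, GART, UMPS and CAD among them, so the order of these values depends in part on level. As a share of DMSO, TK1 (53.6%) fell as far as RRM1 (54.8%) and RRM2 (55.0%). These relative values are descriptions without a test, and the part of S-phase content in the members' changes was not tested.

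The valine diets were compared with the control diet to ask whether amino acid supply changes the members in leukaemic cells. No member passed in any comparison, and no gene did: the background was 0.0% of 9943 tested genes for each diet and for the slope over ranked diets. At an unadjusted p under 0.05, limma listed 433 genes (4.35%) and 0 members at 0.8 g/kg, 1059 (10.7%) and 0 members at 0.4, 1025 (10.3%) and 0 members at 0 g/kg, and 1220 (12.3%) and 1 member, Rrm2, for the slope. Limma-voom on the recovered reads also called 0 genes in each, with 425, 1045, 924 and 1166 at an unadjusted p under 0.05. The 3 diet comparisons share the same 2 control libraries. Mouse values are given in the order TALL2 and TALL3.

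**Figure D3:**
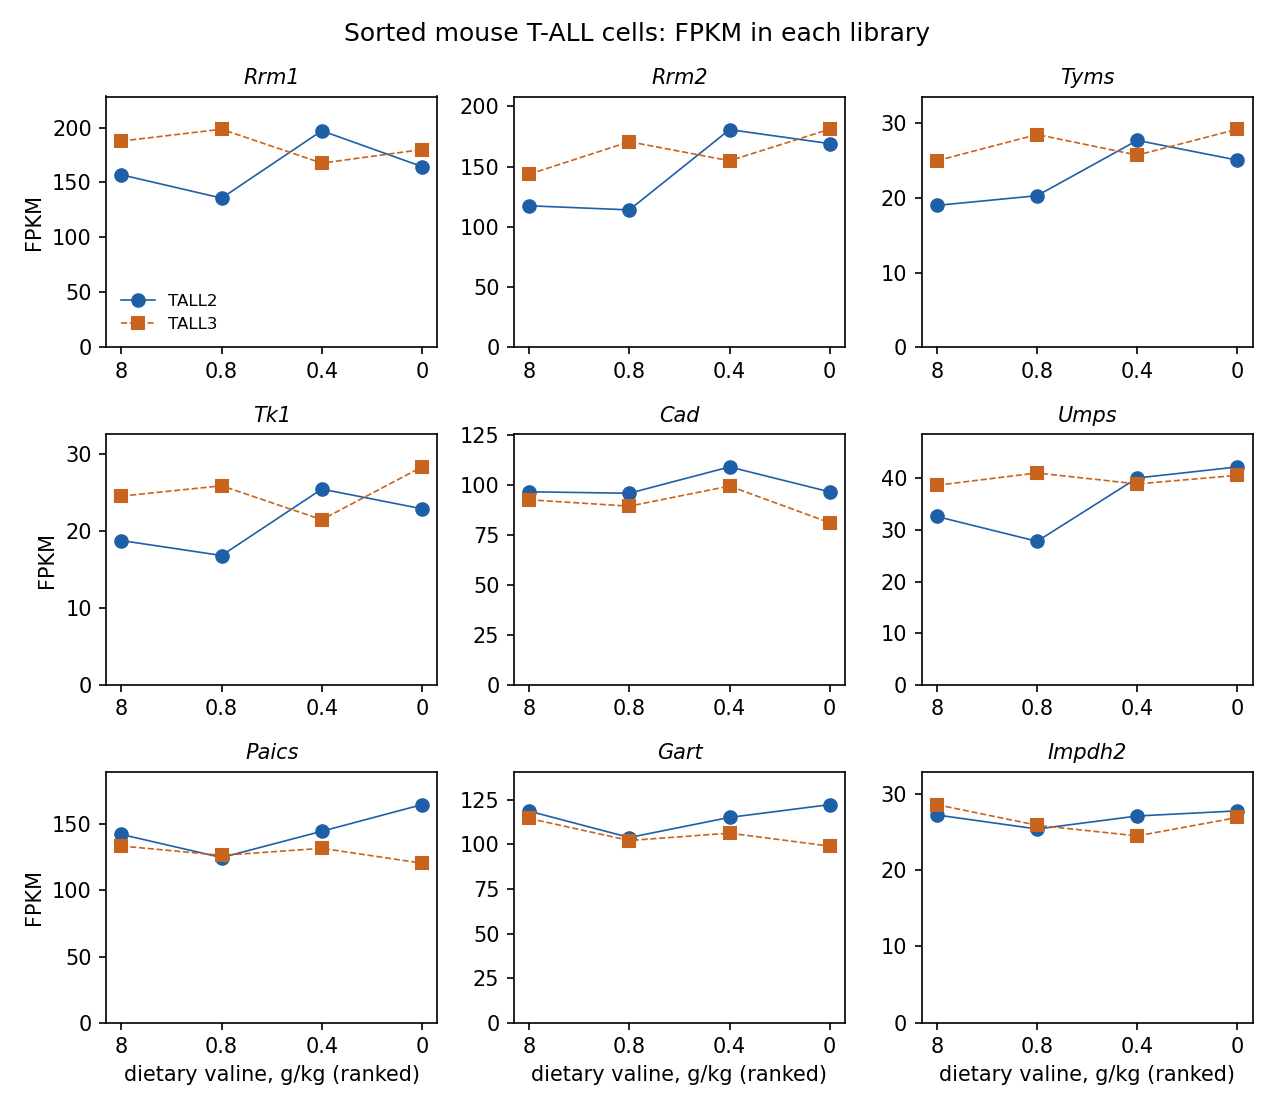
FPKM of each member in sorted mouse T-ALL cells by dietary valine, ranked from 8 to 0 g/kg; circles are TALL2 and squares TALL3 libraries, and lines join libraries of the same name, which were not treated as pairs. Rrm2 in both 0 g/kg libraries (169 and 181 FPKM) lies above both controls (117 and 144), whereas Rrm1, Tk1, Cad, Paics, Gart and Impdh2 overlap with the controls at 0 g/kg.

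Rrm2 showed the largest difference among the members at 0 g/kg. It measured 117 and 144 FPKM at 8 g/kg, 114 and 171 at 0.8, 181 and 155 at 0.4, and 169 and 181 at 0 g/kg. Both libraries at 0.4 and both at 0 g/kg lay above both controls, while those at 0.8 g/kg straddled them. The difference at 0 g/kg was 0.43 on the log2 scale (SE 0.208, limma adjusted p = 0.530), and it was 0.28 without the TALL2 control library and 0.57 without the TALL3 control library. Its slope was 0.15 per step down the ranked diets (SE 0.0578, limma adjusted p = 0.349). That slope was the only value of a member with an unadjusted p under 0.05.

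The diet means of Rrm1 differed from those of Rrm2, although the genes varied together between libraries (r = 0.78). Rrm1 measured 157 and 188 FPKM at 8 g/kg, 136 and 199 at 0.8, 197 and 168 at 0.4, and 164 and 180 at 0 g/kg, with every diet overlapping the controls. Its mean at 0 g/kg was 99.9% of the control mean, against 134% for Rrm2.

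The ratio of Rrm2 to Rrm1 inside each library was higher at each step down the ranked diets. It was 0.748 and 0.765 at 8 g/kg, 0.840 and 0.859 at 0.8, 0.917 and 0.924 at 0.4, and 1.03 and 1.01 at 0 g/kg. At each step both libraries lay above both libraries of the diet before, and the SD between libraries was 0.0049 to 0.0157. The exact 95% binomial intervals for counting error ran from 0.725 to 0.790 over the 2 control libraries and from 0.974 to 1.06 over the 2 libraries at 0 g/kg, on 4138 to 15681 Rrm2 reads a library. The mean ratio at 0 g/kg exceeded that at 8 g/kg by 0.26, and by 0.25 to 0.27 when any 1 of those 4 libraries was left out.

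This ratio was singled out after its values were seen, so its order is a description. Among the 36 pairs of members it was the only one ordered in this way without overlap. Of the 9942 other tested genes, 11 (0.111%), Rrm2 among them, rose relative to Rrm1 at every step without overlap. Of single-gene levels, 13 of 9943 (0.131%) rose at every step, with no member among them. A limma slope fitted to every gene relative to Rrm1 gave Rrm2 0.14 per step (SE 0.0483, adjusted p = 0.939), which did not pass. The neutrophil sum, given above for each diet, was highest at 0 g/kg, and its part in the ratio was not tested.

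**Figure D4:**
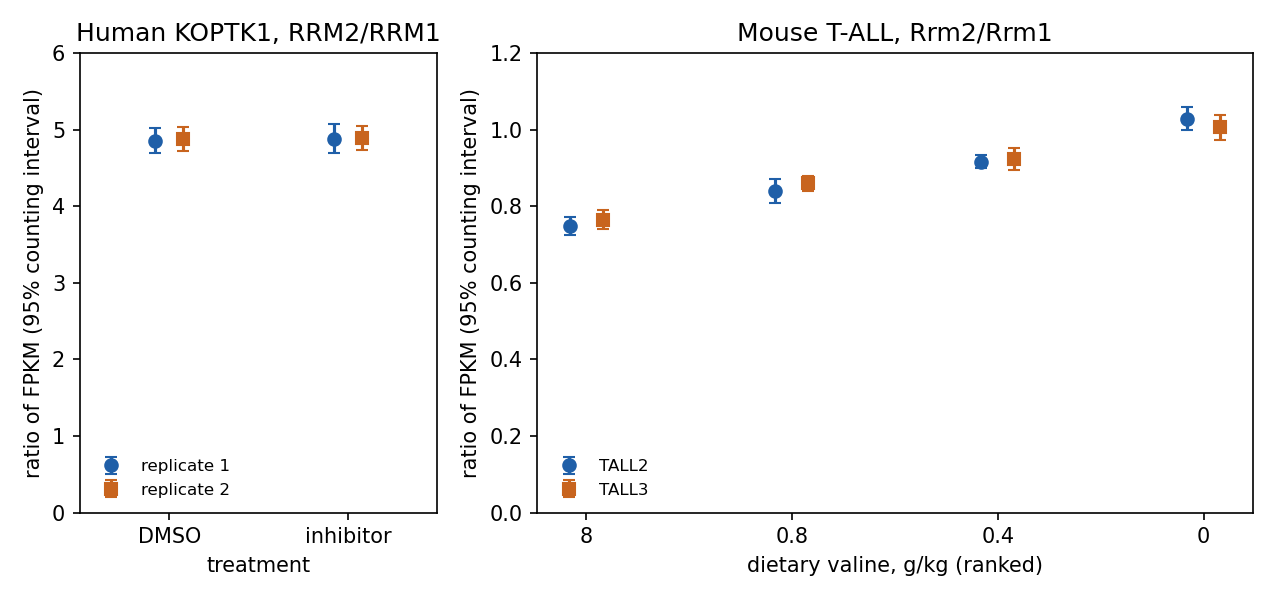
FPKM ratio of RRM2 to RRM1 in each library, left in KOPTK1 and right in mouse T-ALL by dietary valine; bars are exact 95% binomial counting intervals, and the axes differ because the human lengths are not those of the mouse table. The mouse ratio steps from 0.748 and 0.765 at 8 g/kg to 1.03 and 1.01 at 0 g/kg without overlap between diets, while the human ratio stays between 4.86 and 4.89.

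Rrm2b, the alternative small subunit, measured 3.47 and 3.71 FPKM at 8 g/kg, 3.32 and 3.98 at 0.8, 3.17 and 2.69 at 0.4, and 3.09 and 3.00 at 0 g/kg. Its libraries at 0.4 and 0 g/kg lay below both controls, which did not pass in limma (adjusted p 0.629 and 0.691). The Rrm2 to Rrm2b ratio was 33.8 and 38.8 at 8 g/kg, 34.3 and 42.9 at 0.8, 57.0 and 57.6 at 0.4, and 54.8 and 60.3 at 0 g/kg. The 0.4 and 0 g/kg libraries were all above the 8 and 0.8 g/kg libraries in this ratio.

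Tyms measured 19.0 and 25.0 FPKM at 8 g/kg, 20.3 and 28.5 at 0.8, 27.7 and 25.8 at 0.4, and 25.1 and 29.2 at 0 g/kg. The 0.4 and 0 g/kg libraries lay above both controls, the nearest by under 0.1 FPKM. Umps measured 32.6 and 38.7 FPKM at 8 g/kg, 27.8 and 41.0 at 0.8, 40.1 and 38.9 at 0.4, and 42.2 and 40.6 at 0 g/kg, again above both controls at the lower 2 diets. Tk1 measured 18.8 and 24.5 FPKM at 8 g/kg, 16.8 and 25.9 at 0.8, 25.4 and 21.5 at 0.4, and 22.9 and 28.3 at 0 g/kg, with overlap in every diet.

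The purine members and Cad showed no common direction over the diets. Paics measured 142 and 134 FPKM at 8 g/kg, 125 and 127 at 0.8, 145 and 132 at 0.4, and 165 and 121 at 0 g/kg. Gart measured 119 and 115 FPKM at 8 g/kg, 104 and 102 at 0.8, 115 and 106 at 0.4, and 122 and 99.1 at 0 g/kg. Both were below both controls at 0.8 g/kg and spread on either side of them at 0 g/kg. Cad measured 96.6 and 92.6 FPKM at 8 g/kg, 95.8 and 89.4 at 0.8, 109 and 99.4 at 0.4, and 96.5 and 81.1 at 0 g/kg, above both controls at 0.4 g/kg.

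Impdh2 had the narrowest range relative to its level, with 27.2 and 28.6 FPKM at 8 g/kg, 25.4 and 25.9 at 0.8, 27.1 and 24.5 at 0.4, and 27.8 and 26.9 at 0 g/kg. In these cells Impdh1 stood above Impdh2 in every library, from 65.7 to 123 FPKM, and the ratio of Impdh2 to Impdh1 ran from 0.225 to 0.410. Tk2 measured 13.7 and 14.2 FPKM at 8 g/kg, 12.5 and 10.6 at 0.8, 9.50 and 9.74 at 0.4, and 14.1 and 14.6 at 0 g/kg. Its level at 0.4 g/kg was below both controls without passing (log2 difference -0.50, SE 0.104, limma adjusted p = 0.389), and at 0 g/kg it was back in their range or just above. Ppat ran from 35.5 to 45.1 FPKM over the 8 libraries, and the Paics to Ppat ratio from 3.12 to 3.66.

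Counted by libraries that do not overlap with the controls, 3 members were higher at 0 g/kg (Rrm2, Tyms and Umps) against 19.1% of all tested genes, and 0 were lower, against 22.9%. At 0.4 g/kg, 4 were higher (Rrm2, Tyms, Umps and Cad) against 16.9%, and Impdh2 was lower against 31.8%. At 0.8 g/kg, 0 were higher against 10.6%, and 3 were lower (Paics, Gart and Impdh2) against 22.5%. By the same count in KOPTK1, 8 members were lower against 42.4% of tested genes, and CAD was higher against 33.9%.

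**Figure D5:**
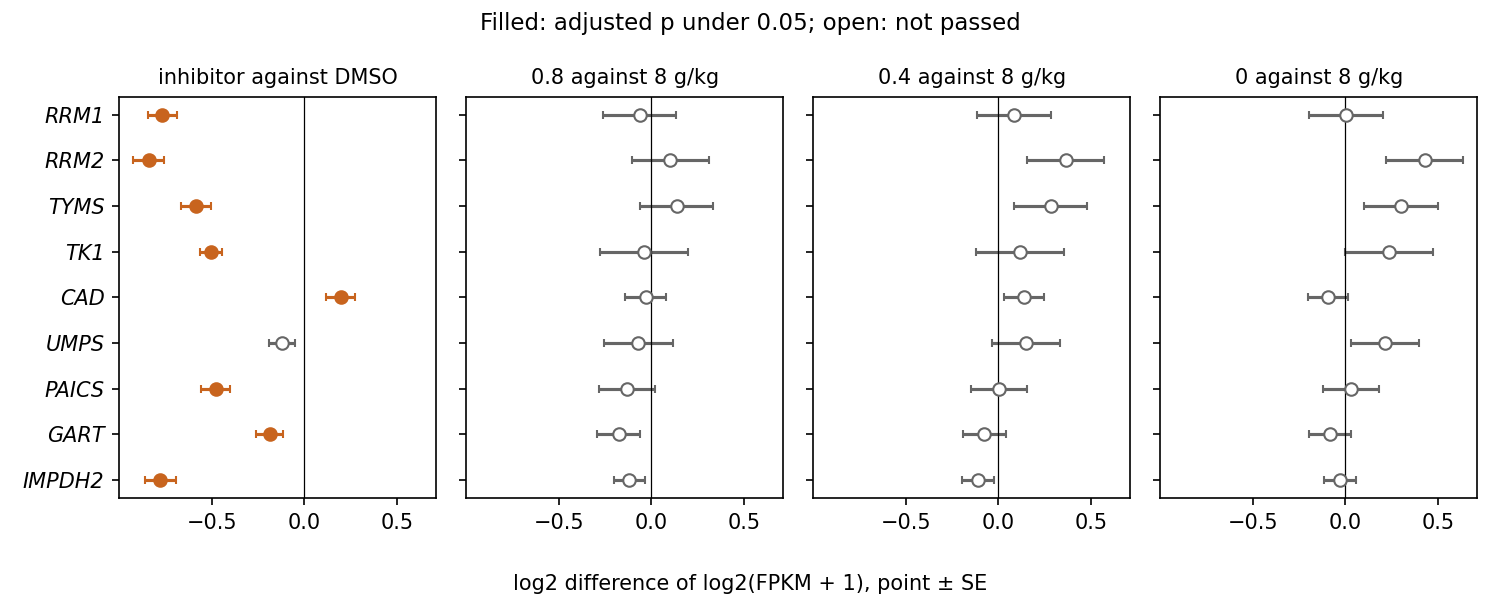
Log2 differences of the 9 members on the log2(FPKM + 1) scale, with SE bars, for the inhibitor against DMSO and for each diet against 8 g/kg; filled points passed an adjusted p of 0.05 in limma. In KOPTK1, 8 points are filled and only CAD of these lies to the right of 0, while all diet points are open.

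Between the 8 mouse libraries, 5 of the members varied closely together, and Paics varied with Gart. Pearson's r on log2(FPKM + 1), given as a description over libraries that share diets and names, was 0.78 to 0.95 among Rrm1, Rrm2, Tyms, Tk1 and Umps. Paics and Gart correlated at 0.92 with each other, and Cad at 0.56 and 0.59 with them. Between Rrm1, Rrm2, Tyms, Tk1 and Umps on one side and Cad, Paics and Gart on the other, r ran from -0.37 (Tyms with Gart) to 0.28 (Umps with Paics). Impdh2 belonged clearly to neither side, with r of 0.60 with Gart, 0.46 with Paics, 0.34 with Tk1, 0.32 with Rrm1 and -0.08 with Cad. TALL2 stood below TALL3 at 8, 0.8 and 0 g/kg for Rrm1, Rrm2, Tyms and Tk1 and above it at 0.4 g/kg. Paics and Gart in TALL2 stood above TALL3 at 8, 0.4 and 0 g/kg. CCAAT occurs in promoters on both sides, as printed above.

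The 5 genes most like the mean profile of Rrm1, Rrm2, Tyms and Tk1 over the 8 libraries, by Pearson's r, were Cdca5 (0.99), which encodes sororin of sister chromatid cohesion, the DNA repair gene Brca1 (0.98), Ssx2ip (0.98), Fut10 (0.98) and Ifrd2 (0.98). The 19 tested genes of the S-phase list had a median r of 0.74, from 0.04 to 0.92, against 0.00 over all tested genes. At 0 g/kg, 18 of those 19 genes were higher than at 8 g/kg without any passing. Their median log2 difference was 0.26, against -0.01 over all tested genes. Genes that vary together are not separate observations. Relative to the mean of that list, Cad (-0.39), Gart (-0.38), Impdh2 (-0.32), Rrm1 (-0.29) and Paics (-0.26) were lower at 0 g/kg on average. Umps (-0.08), Tk1 (-0.06) and Tyms (0.00) changed about as much as the list mean, and Rrm2 (0.13) was higher on average. Rrm2 overlapped with the controls (0.889 and 1.01 at 8 g/kg, 0.993 and 1.17 at 0), as did Paics, Tk1 and Tyms. Umps lay below both controls in both libraries. Such relative values are descriptions without a test.

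Of the 35 pathway genes that are not members, all were tested in mouse, and 0 passed in any comparison. At 0 g/kg, 20 were higher and 15 lower, with a median log2 difference of 0.04 against -0.01 over all tested genes. The 4 with the smallest p there were Dck (log2 difference 0.33, SE 0.0969, limma adjusted p = 0.394), Dguok (0.30, SE 0.102, adjusted p = 0.439), Dctd (0.25, SE 0.135, adjusted p = 0.566) and Samhd1 (1.19, SE 0.658, adjusted p = 0.572). Dck, the deoxycytidine kinase that fell in KOPTK1, measured 52.2 and 56.3 FPKM at 8 g/kg, 66.4 and 58.6 at 0.8, 66.2 and 72.1 at 0.4, and 67.2 and 70.1 at 0 g/kg, above both controls in each restricted diet. Its slope was 0.11 per step (SE 0.0314, limma adjusted p = 0.262).

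Dguok, the mitochondrial deoxyguanosine kinase, measured 14.4 and 12.8 FPKM at 8 g/kg, 15.7 and 14.6 at 0.8, 14.5 and 16.1 at 0.4, and 17.0 and 16.8 at 0 g/kg. Samhd1, which degrades dNTPs, measured 0.561 and 1.58 FPKM at 8 g/kg, 1.42 and 0.947 at 0.8, 0.598 and 2.70 at 0.4, and 1.54 and 7.27 at 0 g/kg. Its high value was in TALL3 at 0 g/kg, the library where 2 B-cell genes (Cd22 and Cd74) summed to 102 FPKM, against 2.49 to 18.6 in the other 7, and the part of such cells was not tested. Among the remaining genes with the smallest p, Gmps was lower at 0.4 and 0.8 g/kg (log2 difference -0.32 in both, adjusted p 0.508 and 0.998), and Dctd was lower there too (-0.29 and -0.27, adjusted p 0.521 and 0.998). For the slope, Nme1 (0.05 per step, adjusted p 0.442) was among them beside Dck and Dguok.

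On GRCm38 the members lie at chr7:102441695-102469771 (Rrm1), chr12:24708241-24714146 (Rrm2), chr5:30058202-30073617 (Tyms), chr11:117815526-117826092 (Tk1), chr5:31054780-31078479 (Cad), chr16:33954782-33967038 (Umps), chr5:76951307-76967509 (Paics), chr16:91621186-91646952 (Gart) and chr9:108560286-108565584 (Impdh2). Paics and Ppat are divergent genes that overlap by 272 bases on opposite strands, Tk1 overlaps Afmid by 169 bases and Impdh2 overlaps Ndufaf3 by 48. Annotated genes that the mouse table does not list overlap others: Gm20708 spans all 10567 bases of Tk1 on the opposite strand, Gm15964 covers 2676 bases of Gart and Gm15829 800 bases of Umps on the opposite strand, and Gm45399 covers 1016 bases of Rrm1 on the same strand. Whether counting used strand is not given in the sources used here, so reads in those bases cannot be assigned to one gene. Reads that the counting may have given to processed pseudogenes could not be separated either.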

How the data were processed

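RNA-seq libraries came from 4 KOPTK1 and 8 mouse samples, made from total RNA with a directional kit per the labels' protocols. They were analysed from 2 tables of FPKM that the authors deposited. FPKM is reads per kilobase of gene over a divisor for each library. Alignment to hg19 or mm10 with STAR and a step with edgeR are named in the submitters' processing notes, without versions. No column was unassigned. Every gene's FPKM ratios between libraries were those of whole read numbers (ratio tolerance 1e-11), giving reads and a length, whole to 0.01 bases for 95.75% of human and 99.88% of mouse genes. Sums of these reads are the depths given. The divisors differed from those sums. They were 0.938 and 1.01 times the sum in DMSO, 1.07 and 1.06 times with the inhibitor, and 1.02 to 1.05 times in mouse.

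Computed here: limma 3.58.1 (R 4.3.3) on log2(FPKM + 1) with a variance trend, genes whose mean reached 1 FPKM, both directions, Benjamini-Hochberg over all tested genes, 0.05. The human fit used 4 libraries and the mouse fit all 8, so that the 4 diets shared 1 spread. The slope ranked the diets from 8 to 0 g/kg. The fits were tested on simulated data. Gene symbols for 318 mouse identifiers came from the reference annotation. Alternatives were pseudocounts of 0.1 and 5, no filter, a filter at 5 FPKM, scaling by median of ratios or by quantiles, no trend, a replicate block, the compared diets alone, each library left out, and limma-voom on recovered reads, the last chosen after seeing the data.

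All 9 members are named in each comparison; of the other pathway genes, up to 6 per direction past the threshold, or the 4 with the smallest p where none passed (1 of these is not reported here), with the partners RRM2B, TK2, IMPDH1 and PPAT. Lists of purine, pyrimidine, dNTP, S-phase, NOTCH, T-cell, neutrophil, erythroid, macrophage, B-cell and ATF4 target genes were used. Members and lists were chosen with earlier results of these data known. Intervals cover counting error only.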

Additional observations from a re-analysis of the deposited data

How the results depend on the processing

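Each group had 2 libraries, which limits the precision of its spread; for the RRM2 to RRM1 ratio the counting intervals were wider than the spread between libraries. RRM2, RRM1, IMPDH2, TYMS, TK1 and PAICS fell and passed in every alternative that tested them; the calls lost or gained for GART, CAD and UMPS are given with those genes. Under the inhibitor, 3547 of 6679 tested genes were called. Without a filter 5374 of 11513 genes and 6 of 9 members were called. At a mean of at least 5 FPKM it was 1139 of 2051 genes, where 5 of the 5 members tested passed. Fits that left out 1 library tested 6679 genes as well. Leaving out 1 library gave 2226 (without inhibitor replicate 2) to 3531 genes and 6 to 9 members. The split of higher and lower calls, given beside the comparison, moved with scaling; voom on recovered reads put the median of all genes at 0.10. The voom fit scaled by recovered reads and not by the FPKM divisors. Those divisors were 0.938 and 1.01 times the reads in DMSO and 1.07 and 1.06 times with the inhibitor. Levels as a percent of DMSO carry that difference. Its part in the split of calls was not tested.

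Same-numbered samples were not taken as pairs: their deviations correlated at 0.26 in KOPTK1 and from -0.17 to 0.74 between diets. A replicate block gave 3705 of 6679 genes and 8 of 9 members for the inhibitor and 0 genes for each diet, and changed no member's call.

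For the diets, 0 genes passed in the alternatives, except for the slope, where 2 passed without TALL3 at 0.8 g/kg and 1 without TALL2 at 0.4 g/kg, so that leaving out a library gave 0 to 2; no member passed. Of 639 member values under alternatives, 36 changed sign, all from differences that did not pass. Quantile normalisation gave Paics -0.0112 and Rrm1 -0.0157 at 0 g/kg and Paics -0.0194 at 0.4. At 0.8 g/kg median-of-ratios scaling gave Cad 0.0151 and Tk1 0.00613, and voom gave Tk1 0.00084. Leaving out 1 library gave, lowest and highest, at 0 g/kg Cad -0.219 and 0.0295, Paics -0.192 and 0.256, Rrm1 -0.125 and 0.131, Impdh2 -0.0623 and 0.00517, and Gart -0.233 and 0.0684. At 0.4 g/kg it gave Paics -0.0643 and 0.0694, Rrm1 -0.0462 and 0.210, and Tk1 -0.0668 and 0.303. At 0.8 g/kg it gave Tyms -0.0981 and 0.372, Cad -0.0804 and 0.0193, Rrm1 -0.336 and 0.209, Tk1 -0.334 and 0.259, Rrm2 -0.186 and 0.391, and Umps -0.342 and 0.203. For the slope it gave Cad -0.0237 and 0.0356, Paics -0.0336 and 0.0698, Rrm1 -0.00992 and 0.0493, Impdh2 -0.024 and 0.012, and Gart -0.0547 and 0.015.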
